A study of Zea mays with 12 samples.

Results

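The genes described here were lowered by blue light in maize leaves of the inbred line B73 and showed almost no difference between blue light and dark in the mutant zmcryq. They numbered 84 of the 21472 genes tested. They were chosen from these same libraries by group means of log2(scaled FPKM + 1): the blue minus dark difference lay between -0.5 and 0.5 in zmcryq and was -1.5 or lower in B73. FPKM is the number of fragments relative to transcript length and to the mapped total of the library, and scaled FPKM is that value divided by a factor for the library. The responses to blue light in either genotype, and their difference, therefore describe the choice and are given without a reading.

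Leaf RNA was sequenced from 4 groups of 3 libraries, namely zmcryq given blue light for 1 h (zmcryq blue), zmcryq kept dark (zmcryq dark), and B73 under the same conditions (B73 blue and B73 dark). All seedlings were labelled 7 days old, had grown under white light in long days and had spent 48 h in darkness before the blue light or the matching dark time. B73 is labelled as wild type, and the labels give neither the alleles nor the number of genes mutated in zmcryq, nor whether replicates are different plants. The p-values thus cover only differences among these 12 libraries, and this spread could be technical.

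Cryptochromes are receptors for blue light. In Arabidopsis, where they are best known, light-activated cryptochromes restrain a ubiquitin ligase that destroys light-promoting transcription factors, and they also act on factors that promote growth in the dark. Seedlings held in the dark accumulate transcripts of growth and carbon-starvation genes, many of which drop when light returns. The deposited gene IDs are not paired with names, and 0 of them were found in the reference gene table, so genes are given by ID, no function is assigned to any of them, and the mutated genes and leaf markers were not checked.

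Library totals ran from 588717 to 814802 FPKM, and the scaling factors from 0.507 (zmcryq dark, replicate 1) up to 1.64 (zmcryq blue, replicate 3). The number of fragments behind a value is unknown. B73 blue replicate 2 had the second-lowest factor, 0.567, and the 20 most abundant genes took 34.6% of its total, against 10.1% and 12% in the other B73 blue libraries.

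Of the 849 genes at -1.5 or lower in B73, the 84 made up 9.89%. Another 538 genes (63.4%) were also at -1.5 or lower in zmcryq, 211 lay between the cut-off and the lower limit in zmcryq, and 16 lay above the upper limit. The gene nearest to the B73 cut-off stood at -1.504 inside it and at -1.497 outside. At the zmcryq limits the nearest values were -0.493 inside and -0.517 outside on the lower side, and 0.458 inside and 0.51 outside on the upper side. Of the 84, 13 lay within 0.1 of the B73 cut-off and 19 within 0.1 of a zmcryq limit.

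**Figure D1:**
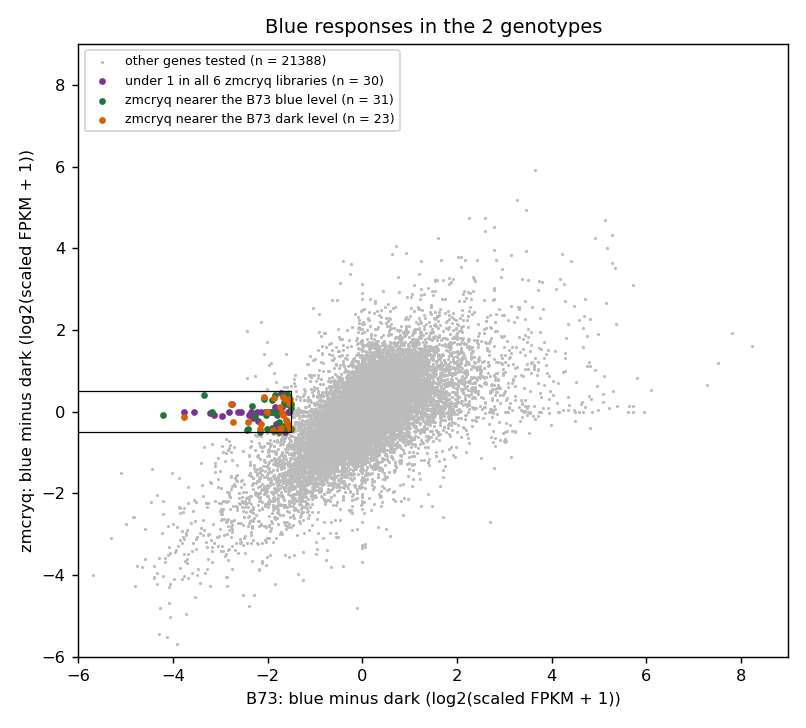
Blue minus dark difference of each gene tested, B73 on the x axis and zmcryq on the y axis, both as differences of mean log2(scaled FPKM + 1) over 3 libraries. The black outline is the rule, and the 84 genes inside it are coloured by the level they had in zmcryq; all other genes are grey.

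A response lost from a dark level like that of B73 was seen in a minority of these genes. In 30 of the 84 (35.7%) the zmcryq level was under 1 scaled FPKM in all 6 libraries, dark and blue alike. On the log2(scaled FPKM + 1) scale such a gene has less than 1 unit to fall, so a fall as large as the B73 cut-off could not have been seen in zmcryq. Within these limits 1 of the 30 passed as lower and 1 as higher after blue light in zmcryq (limma, adjusted p under 0.05). In another 31 (36.9%) the gene reached 1 scaled FPKM in at least 1 zmcryq library. Its mean over both lights lay below the midpoint of the B73 blue and B73 dark levels, nearer to the lit B73 state. The zmcryq dark means of these 31 had a minimum of 0 and a lower quartile of 1.15 scaled FPKM. In part of the 31, a fall as large as the B73 cut-off could thus not have been seen either. Only in the remaining 23 (27.4%) did the zmcryq level lie above that midpoint, nearer to the dark B73 state. These sets were drawn after the values were seen.

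**Figure D2:**
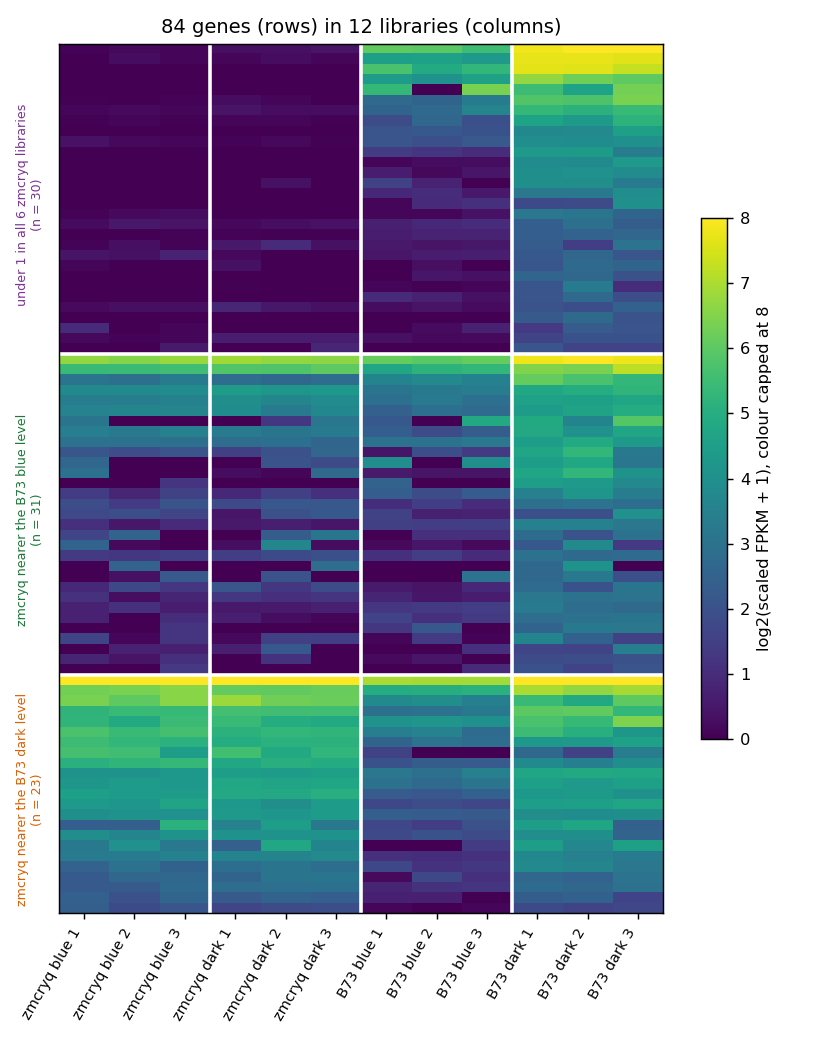
Level of each of the 84 genes (rows) in each of the 12 libraries (columns), as log2(scaled FPKM + 1) with colours capped at 8. The upper 30 rows are dark in all 6 zmcryq columns, the middle 31 rows are bright mainly in the B73 dark columns, and the lower 23 rows are dimmer in the B73 blue columns than in the zmcryq blue and B73 dark ones.

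The response of zmcryq in these genes had a median of -0.02 on the log2 scale (range -0.49 to 0.46), and that of B73 a median of -1.86 (range -4.22 to -1.5). In zmcryq 8 of the 84 passed a limma adjusted p of 0.05 as lower in blue light and 2 as higher, against 27.8% and 28.3% of all genes tested. In B73 the fall passed in 77 genes, against 25.2% of all genes tested. All 3 B73 blue libraries lay below all 3 B73 dark libraries in 79 of the 84 genes, a separation that 26.6% of all genes tested showed. The response difference, zmcryq minus B73, passed as positive in 70 genes, against 10.8% of all.

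The zmcryq response was less exact for single genes than its narrow limits imply. Its 95% confidence interval had a median half-width of 0.43 and lay wholly between -0.5 and 0.5 in 19 of the 84 genes. In 10 genes the interval reached -1.5, the B73 cut-off itself, and 8 of these 10 belonged to the 31 genes nearer to the B73 blue level.

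The gene with the largest fall in B73, Zm00001eb222150, is one of these. It had 6.61, 0 and 0 scaled FPKM in zmcryq blue and 0.197, 0.0744 and 5.79 in zmcryq dark. In B73 it had 0.491, 0.352 and 0.337 scaled FPKM after blue light, against 24.8, 38.7 and 16.1 in the dark. Each zmcryq group held 1 library near 6 and 2 near 0, so the mean response of -0.07 ± 0.88 (SE) averaged over unlike libraries, whereas the B73 groups did not overlap. Its response in B73 was -4.22 ± 0.88, and its dark difference, zmcryq minus B73, was -3.65 ± 0.88 (limma adjusted p 0.0067).

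The second largest fall belonged to Zm00001eb163680, among the 23 genes nearer to the B73 dark level. It had 8.43, 15.5 and 8.19 scaled FPKM in zmcryq blue and 4.53, 26.8 and 11.1 in zmcryq dark, with fully overlapping ranges. B73 had 0, 0 and 1.64 scaled FPKM in blue light, against 20.9, 12.1 and 22.3 in the dark. The dark levels of the genotypes overlapped, and their difference of -0.62 ± 0.59 did not pass (limma adjusted p 0.41). This difference rested on single libraries: it was -0.04 when zmcryq dark replicate 1 was left out and -1.20 without zmcryq dark replicate 2, and did not pass under any alternative run (limma adjusted p 0.071 to 0.96).

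**Figure D3:**
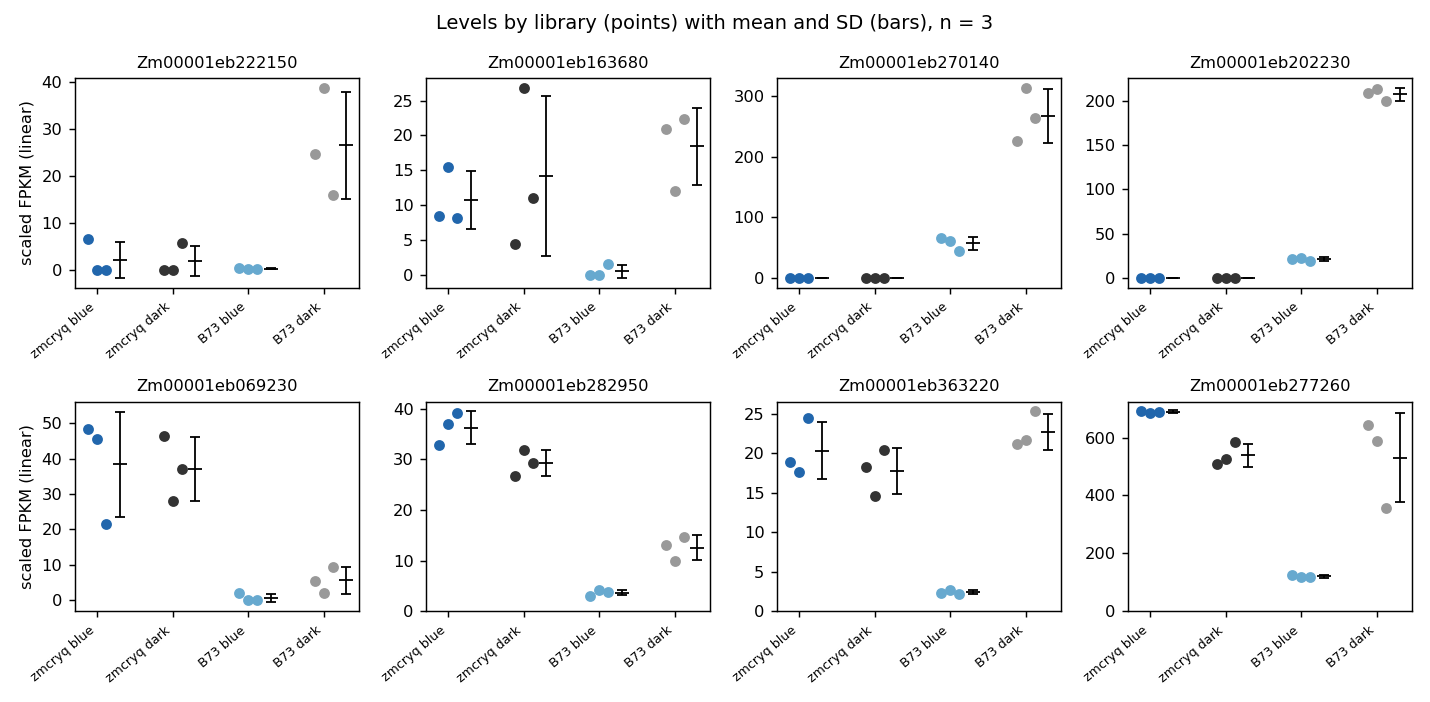
Scaled FPKM of the 8 genes named in the text in every library (points, 3 a group), with the group mean and SD beside them (black), on linear axes. Zm00001eb270140 and Zm00001eb202230 lie near 0 in both zmcryq groups, while Zm00001eb363220 and Zm00001eb277260 are low in B73 blue and not in zmcryq blue.

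The starting level in the dark was the comparison that the rule did not cut on, although it used the same libraries. A gene picked for a large fall in B73 tends to have its B73 dark values by chance on the high side, which lowers this difference. The level in zmcryq dark passed as lower than in B73 dark in 56 of the 84 genes (66.7%), against 24.7% of all genes tested, and as higher in 6 (7.14%), against 25.1% (limma, adjusted p under 0.05). The other 22 did not pass. The 3 zmcryq dark libraries lay wholly below the B73 dark ones in 58 genes (27.2% of all genes tested) and wholly above them in 8 (28.2% of all). The median difference, zmcryq minus B73, was -1.62 over the 84 and 0.03 over all genes tested.

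Some of these genes met the filter on low values only through the B73 dark group. Run without that filter, the rule gave 89 genes, with all 84 among them. Of the 84, 55 then passed as lower in zmcryq dark and 6 as higher (limma, adjusted p under 0.05). In that run 11145 genes passed in either direction. These are the same 84 genes, so the counts cannot show how the filter shaped the choice. All 84 genes had 1 FPKM or more in at least 3 libraries, but 28 met this only with the help of 1 or more B73 dark libraries, which favours genes high in that group; 26 of these 28 passed as lower in zmcryq. In 10 of them no library outside B73 dark reached 1 FPKM. Of the 56 genes that would have met it from the other groups alone, 30 passed as lower, 6 as higher and 20 did not pass, with a median difference of -0.91. These counts are given as a description and support nothing further. Among the 538 genes lowered in both genotypes, 85 (15.8%) passed as lower in zmcryq dark and 167 (31%) as higher, with a median of 0.23, but the rule for those genes likewise used these libraries.

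**Figure D4:**
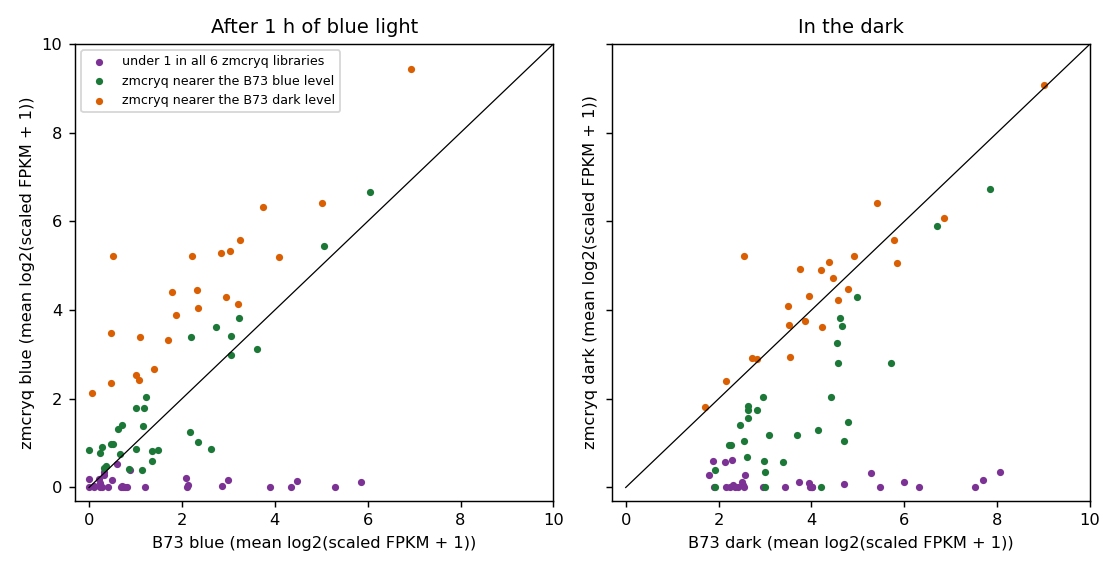
Mean log2(scaled FPKM + 1) of the 84 genes in zmcryq (y axis) against B73 (x axis), after blue light (left) and in the dark (right), with the line of equal levels. In blue light the 23 genes nearer to the B73 dark level (orange) all lie above the line, as the way those 23 were drawn requires. In the dark they lie around it, and the other 61 lie below it, as the way those 61 were drawn requires.

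The 30 genes under 1 scaled FPKM in zmcryq had median levels of 0.0279 in zmcryq blue, 0.0256 in zmcryq dark, 0.679 in B73 blue and 8.55 in B73 dark, and 12 of them were listed at 0 in all 6 zmcryq libraries. All 30 passed as lower in zmcryq dark, 21 of them having met the filter only through B73 dark. The zmcryq level under 1 and the B73 cut-off together force a lower zmcryq dark mean in all 30. This direction is therefore no finding. Under blue light 16 of the 30 passed as lower in zmcryq than in B73, against 28.1% of all genes tested. All 3 zmcryq libraries lay below all 3 B73 libraries in 20, against 32.5% of all. These counts also lean on the zmcryq level under 1 that defines the set. Over all genes tested, 986 (4.59%) were under 1 in all zmcryq libraries, and 31 of the 849 genes lowered in B73 were, so the rule took all but 1 of those 31.

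The most abundant of them differed in level between the genotypes in both lights. Zm00001eb270140 had 0.0475, 0.127 and 0.0852 scaled FPKM in zmcryq blue and 0.256, 0.26 and 0.329 in zmcryq dark. B73 had 65.7, 60.9 and 45.2 scaled FPKM in blue light, against 225, 313 and 263 in the dark. Every B73 library, lit or dark, was above every zmcryq library, and the dark difference was -7.70 ± 0.14 (limma adjusted p 6.4e-12). Zm00001eb202230 had 0.0158, 0.196 and 0.0913 scaled FPKM in zmcryq blue and 0.0985, 0.205 and 0.0961 in zmcryq dark. In B73 it had 22, 22.9 and 19.2 scaled FPKM in blue light, against 209, 213 and 199 in the dark. Again every B73 library was above every zmcryq library, with B73 dark at 207 ± 7.09 (SD, n = 3), and a dark difference of -7.52 ± 0.10 (limma adjusted p 5.1e-13).

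The 31 genes nearer to the B73 blue level had median levels of 1.67 scaled FPKM in zmcryq blue and 2.32 in zmcryq dark, against 1.58 in B73 blue and 7.44 in B73 dark. In the dark 22 of them passed as lower in zmcryq and 0 as higher, against 24.7% and 25.1% of all genes tested. The median difference was -1.52 (range -4.2 to -0.69). The rule and the way the set was drawn force a lower zmcryq dark mean in all 31, so this direction is no finding. After blue light the genotypes were closer, which partly follows from how the set was drawn. Of the 31, 5 passed as lower in zmcryq and 6 as higher, against 28.1% and 26.9% of all genes tested. The median difference was 0.36, and the libraries overlapped in 18 (in 7427 of all 21472 genes tested). On a scale that puts the B73 blue mean at 0 and the B73 dark mean at 1, their median position was 0.12 in zmcryq blue and 0.26 in zmcryq dark. These genes were also the least even ones: 6 of them did not pass for the fall in B73, against 1 of the other 53.

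The 23 genes nearer to the B73 dark level had median levels of 18.7 scaled FPKM in zmcryq blue and 21.2 in zmcryq dark, against 3.69 in B73 blue and 17.6 in B73 dark. Their median position on the same scale was 0.95 in zmcryq blue and 1.06 in zmcryq dark, and 11 of them stood above the B73 dark mean in zmcryq blue. In the dark 13 did not pass for a difference between the genotypes (10790 of all 21472 genes tested did not). As higher in zmcryq 6 passed (26.1%) and as lower 4 (17.4%), against 25.1% and 24.7% of all genes tested. These counts lie near those of all genes and are not particular to the 23. The median dark difference was 0.14. After blue light 22 of the 23 passed as higher in zmcryq, the median difference was 2.05, and all 3 zmcryq libraries lay above all 3 B73 libraries in every one of the 23. The rule and the way the set was drawn force a higher zmcryq blue mean in all 23, so this direction is no finding. Over all 84 genes, 28 passed as higher in zmcryq blue and 21 as lower, against 26.9% and 28.1% of all genes tested, and 31 and 25 were fully separated, against 32.9% and 32.5% of all.

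Examples of this pattern, chosen after the values were seen, were Zm00001eb363220 and Zm00001eb277260. Zm00001eb363220 had 18.9, 17.6 and 24.4 scaled FPKM in zmcryq blue and 18.3, 14.6 and 20.4 in zmcryq dark. In B73 it had 2.36, 2.73 and 2.25 in blue light, against 21.1, 21.7 and 25.3 in the dark. The B73 blue libraries stood apart from the other 9, which ran from 14.6 to 25.3. The dark difference was -0.35 ± 0.14 and did not pass (limma adjusted p 0.066), but it passed without zmcryq blue replicate 3 (limma adjusted p 0.046) and without zmcryq dark replicate 3 (limma adjusted p 0.039), with a range of 0.039 to 0.25 over its alternatives. Its size was -0.84 without scaling and -0.22 without zmcryq dark replicate 2.

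Zm00001eb277260 was the most abundant of the 84 genes, with 693, 683 and 689 scaled FPKM in zmcryq blue and 507, 526 and 583 in zmcryq dark. In B73 it had 126, 119 and 117 in blue light, against 645, 589 and 357 in the dark. The zmcryq blue libraries were above every other library, and the zmcryq response was 0.36 ± 0.19 (SE). The dark levels overlapped: the difference was 0.07 ± 0.19 (limma adjusted p 0.80), and it was -0.46 without scaling, -0.16 after quantile normalization and -0.19 without B73 dark replicate 3.

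Zm00001eb069230 and Zm00001eb282950 had the largest differences among the 6 genes that passed as higher in zmcryq dark. Zm00001eb069230 had 48.5, 45.5 and 21.4 scaled FPKM in zmcryq blue and 46.3, 28 and 37.1 in zmcryq dark. In B73 it had 1.9, 0 and 0 in blue light, against 5.43, 1.94 and 9.34 in the dark. All 6 zmcryq libraries were above all 6 B73 libraries, and the dark difference was 2.69 ± 0.55 (limma adjusted p 0.0026). B73 expressed little of this gene before the light, and its B73 blue and dark values nearly met, at 1.9 and 1.94.

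Zm00001eb282950 had 32.8, 36.9 and 39.1 scaled FPKM in zmcryq blue and 26.8, 31.8 and 29.2 in zmcryq dark. In B73 it had 3.06, 4.11 and 3.9 in blue light, against 13.1, 9.92 and 14.7 in the dark. Here too the genotypes did not overlap in either light, and within B73 the lit libraries were all below the dark ones. The dark difference was 1.17 ± 0.14 (limma adjusted p 3.9e-05), and without scaling it was 0.67 and did not pass (limma adjusted p 0.36).

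The 84 genes spanned a wide range of abundance. Their B73 dark means ran from 2.29 to 530 scaled FPKM with a median of 12.5, against a median of 36.4 in the 538 genes lowered in both genotypes and 7.59 over all genes tested. In B73 dark 17 of the 84 averaged under 5 scaled FPKM and 12 averaged 50 or more, against 8692 and 2012 of the 21472 genes tested. In B73 blue 33 averaged under 1, against 2456 of those 21472. At least 1 library was listed at 0 in 37 of the 84 genes, whereas 19555 of the 21472 genes tested were above 0 in all 12 libraries. An exact 0 in such a table can be a failed estimate, so no fold is given against it.

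The response was also read in libraries that had no part in the choice. The rule was applied to 2 replicate numbers of every group, with a filter of 1 FPKM in 2 of those 8 libraries, and the third number was read. It chose 94, 103 and 104 genes when replicates 1, 2 and 3 were left out, of which 63, 59 and 62 were among the 84. In the replicate left out, the median response was -0.05, -0.06 and 0 in zmcryq and -1.69, -1.49 and -1.47 in B73. The blue minus dark value was lower in B73 than in zmcryq in 84 of 94, 87 of 103 and 83 of 104 genes, against 48.8%, 48.4% and 47.9% of all genes read. Both parts of the rule were met again by 43, 37 and 41 genes (45.7%, 35.9% and 39.4%).

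A near-zero median in zmcryq is partly fixed by genes at the floor. Of the chosen genes 39, 45 and 43 were under 1 scaled FPKM in all zmcryq libraries used to choose them. In the other 55, 58 and 61 genes, which reached 1 in zmcryq, the median response in the replicate left out was -0.33, -0.23 and -0.29 in zmcryq, against -1.66, -1.40 and -1.30 in B73. Of these genes 50, 51 and 49 had the lower value in B73, and 19, 16 and 19 met both parts of the rule again.

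In the replicate left out, zmcryq dark was below B73 dark in 76 of 94, 67 of 103 and 68 of 104 genes, against 47.9%, 48% and 49% of all genes read. Some of these genes met the filter only through the B73 dark libraries. Of the 66, 74 and 69 that met it from the other groups alone, zmcryq dark was lower in 54, 46 and 39, with medians of -0.87, -0.57 and -0.30, against 0.02, 0.01 and 0.00 over all genes. With 1 library a group there is no test of these values, and the library factors were shared by all libraries. Membership of a single gene thus rested on single libraries more than the medians did.

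**Figure D5:**
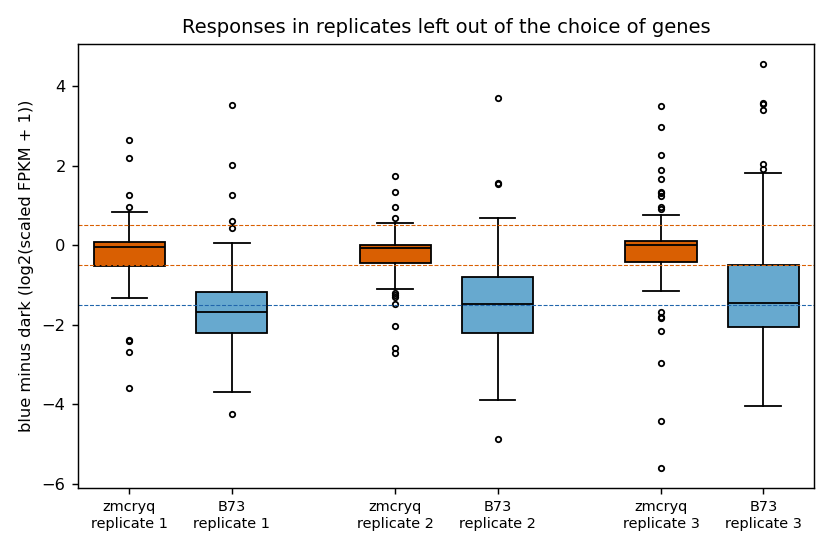
Blue minus dark difference, as log2(scaled FPKM + 1), in the replicate number that had no part in choosing the genes (94, 103 and 104 genes for replicates 1, 2 and 3). Boxes show the median and quartiles, whiskers reach 1.5 times the interquartile range, points lie beyond, and dashed lines mark -1.5, -0.5 and 0.5; the medians lie at -0.05, -0.06 and 0 in zmcryq (orange) and at -1.69, -1.49 and -1.47 in B73 (blue).

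The deposited table is sorted by ID number, and the 23 genes nearer to the B73 dark level than to the B73 blue level were unevenly spread along it. The 2000 consecutive rows with the most of the 84 genes held 15 of them (17.9%) and 4.82% of the genes tested. Of the 23 genes nearer to the B73 dark level 10 (43.5%) were there, of the 31 nearer to the B73 blue level 4, and of the 30 under 1 in zmcryq 1. The same rows held 32 of the 538 genes lowered in both genotypes (5.95%). Rows were chosen for this count after the values were seen, so it has no test. Other widths were placed by the 23 genes themselves and not by all 84. The 1000 rows with the most of the 23 held 8 of them and 2.4% of the genes tested. The 4000 rows with the most of the 23 held 11 and 9.06%.

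The other genes in those 2000 rows were also set beside the rest of the table. Of the 1019 that were not among the 84, 50% passed for a dark difference between the genotypes, against 49.6% of the 20369 elsewhere, and the median absolute difference was 0.39 against 0.41. A positive response difference, zmcryq minus B73, passed in 12.4% of them against 10.4% elsewhere. A higher level in zmcryq blue than in B73 blue passed in 30.6% against 26.7%. Within 10 rows of another of the 84 lay 18 of them (21.4%), against 182 of the 538 (33.8%) by the same count in that larger list. Whether neighbouring ID numbers are neighbouring genes was not tested.

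The sizes of the 3 sets moved with the processing. Without B73 dark replicate 3 the set under 1 in zmcryq held 19 genes in place of 30. The set nearer to the B73 dark level held 41 genes in place of 23 without B73 blue replicate 2 and zmcryq dark replicate 1 together, 35 after quantile normalization and 75 without scaling. It held 80 with a pseudocount of 0.1 and 6 with one of 5, and the set under 1 in zmcryq held 50 and 11. The set nearer to the B73 blue level held 56 genes in place of 31 without scaling and 19 with a pseudocount of 5.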

How the data were processed

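The authors deposited 1 table of 44303 gene IDs in 12 libraries, read as FPKM from its values and from Cufflinks in the submitters' processing notes; no header states the unit, and TPM over a larger gene set cannot be told apart. The deposited means of FPKM (4 columns) were not used. Among the tools listed in these notes, without roles, are HISAT2 2.2.1.0 and Trimmomatic 0.36. The genome build, the annotation and the use of strand were each not given in the sources used here. Fragments of overlapping genes or close copies may therefore be mixed.

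Genes at 1 FPKM or more in 3 libraries were kept (21472). Each library was divided by its median ratio to the geometric means of 19555 genes above 0 throughout, which removes any shift shared by most genes. Log2(scaled FPKM + 1) of all 12 libraries was fitted with limma 3.58.1 in R 4.3.3 (4 group means, trended and robust moderation, Benjamini-Hochberg over all genes, 2-sided), after tests on simulated data. Differences on this scale understate changes of low genes.

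The genes and tests were chosen with earlier results of these data known. Named genes are the 2 that fell most in B73 and the 2 lowest and 2 highest in zmcryq dark among those that passed, plus 2 chosen after their values were seen. Planned lists by function, leaf markers and promoter motifs were not analysed here, for want of names. Alternatives were other scalings, pseudocounts, filters and cut-offs, a replicate block and leaving out libraries.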

Additional observations from a re-analysis of the deposited data

Results flagged for a closer look

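The blue response differed between the genotypes by its own test in 70 of the 84 genes (limma, adjusted p under 0.05), all with the smaller fall in zmcryq. The genes were picked for that difference, so the count describes the choice. In 28 of these 70 the zmcryq level was under 1 scaled FPKM in all libraries.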

How the results depend on the processing

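The rule gave 84 genes as reported, 161 without scaling (55 shared with the 84), 166 with a pseudocount of 0.1 (56 shared) and 36 with a pseudocount of 5 (25 shared). A B73 cut-off of -1 gave 260 genes and one of -2 gave 35, and zmcryq limits of 0.25 gave 48; the cause of these moves is the width of the rule. For the pseudocounts and the scaling the cause was not tested. Leaving out single libraries gave 75 to 90 genes. Of the 84, the number that passed as lower in zmcryq dark was 43 to 58 without single libraries (74 of the 84 met the filter without a B73 dark library) and 39 to 58 under the other alternatives, the 39 being out of the 62 that met a filter of 5 FPKM in 3 libraries; as higher it was 6 to 7 without single libraries and 1 without scaling, where the median of all genes moved to -0.38. The dark difference of Zm00001eb277260, which did not pass, changed sign to -0.46 without scaling and -0.16 after quantile normalization, and ran from -0.19 to 0.23 without single libraries. With the replicate number as a block, 56 passed as lower and 6 as higher, the same counts as without it. Deviations of same-numbered libraries from their group means had correlations of -0.3 to 0.32. All were positive only between zmcryq blue and B73 blue (0.05, 0.32 and 0.18), where differently numbered libraries ran from -0.32 to 0.2. Between B73 blue and B73 dark they were 0.26, -0.05 and 0.25, against -0.37 to 0.29. The numbers were not taken as pairs. All listed alternatives were run. Depth is unknown, so no floor can be set for values at 0.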
